A study of Mus musculus with 2 samples.

Results

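The miR-130 and miR-301 family of the embryonic mouse midbrain was described across 2 libraries of small RNA. Its members are the 4 loci Mir130a, Mir130b, Mir301 (the gene of miR-301a) and Mir301b, which were taken by gene identifier and symbol from the 1973 miRNA loci with counts, and all 4 were found. The samples formed 1 group: midbrain tissue of B6NCrl mouse embryos at day 14.5, with no treatment named, in 2 biological replicates. Each replicate is labelled as a single midbrain with its own collection day, so that day, animal and library cannot be told apart, while the labels also give the sex as pooled. Both are labelled as pup 1 of pregnancy 2 and carry the same donor identifier, so only the collection days mark separate animals. The SDs below measure the spread between these 2 samples, which may in part be technical. With 1 group there is no contrast between conditions, and the data answer how abundant each member was, how the members shared the family's reads and how closely the replicates repeated this.

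A miRNA is cut from a hairpin transcript as a short strand from its 5′ or 3′ arm, and bases 2 to 8 of that strand, the seed, pair with target transcripts that are then repressed. The family is defined by the seed of its 3′ arms. miR-130a is known in endothelial cells, where it represses the homeobox genes Gax and Hoxa5 and favours vessel growth, and members of the family repress Pparg, a regulator of fat cell formation.

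The mature strands are shown because the shared seed, in capitals, is what makes the loci 1 family, and because the bases after it set the members apart. All 4 hairpins and 7 mature arms of the members were found in RefSeq's GRCm38.p6 table, the same assembly as the mm10 of the counts. The 3′ arm of Mir301b was not listed there. Comparisons and searches of 3′ arms therefore cover only the 3 other members. The 3′ arms read 5′ to 3′:
miR-130a-3p: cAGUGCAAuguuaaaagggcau
miR-130b-3p: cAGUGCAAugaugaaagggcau
miR-301a-3p: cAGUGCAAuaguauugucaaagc

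Counted from base 1 at the 5′ end, miR-130a-3p and miR-130b-3p were identical at 20 of 22 bases and differed by U11A and A13G, with the base of miR-130a-3p first. miR-301a-3p matched miR-130a-3p over the first 9 bases and at 12 of 22 in all. The 5′ arms, with bases 2 to 8 in capitals, carried other seeds:
miR-130a-5p: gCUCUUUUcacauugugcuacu
miR-130b-5p: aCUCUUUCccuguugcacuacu
miR-301a-5p: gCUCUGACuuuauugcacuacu
miR-301b-5p: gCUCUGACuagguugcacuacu

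miR-301a-5p and miR-301b-5p shared their seed and differed at 3 of 22 bases, U10A, U11G and A12G. miR-130a-5p and miR-130b-5p differed at 7 of 22 bases, among them U8C inside the seed. miR-130b-5p matched each of the miR-301 5′ arms at 16 of 22 bases and miR-130a-5p at 15, so by this count its namesake was not the closest. The other 5′ arms were closest to their namesakes. miR-301a-5p and miR-301b-5p matched at 19 bases, and miR-130a-5p matched each miR-301 5′ arm at 14. The counts are per locus and do not separate the arms, so that every level below is the sum of both arms of a hairpin.

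The hairpins are printed because the counts were made over them, with the shared 7 bases in capitals and all in GRCm38.p6:
Mir130a: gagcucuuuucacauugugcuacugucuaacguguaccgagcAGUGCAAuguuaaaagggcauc
Mir130b: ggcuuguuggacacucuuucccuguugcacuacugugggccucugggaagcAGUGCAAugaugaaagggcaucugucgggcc
Mir301: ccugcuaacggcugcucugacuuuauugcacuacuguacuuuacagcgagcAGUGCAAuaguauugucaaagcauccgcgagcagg
Mir301b: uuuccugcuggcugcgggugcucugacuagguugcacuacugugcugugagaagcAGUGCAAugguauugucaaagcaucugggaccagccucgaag

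Each hairpin held these 7 bases once, starting between base 43 in Mir130a and base 56 in Mir301b. Mir130a had the shortest hairpin of the family, 64 bases, followed by Mir130b with 82, Mir301 with 86 and Mir301b with 97. The median over 342 detected loci with a listed hairpin was 83.5 bases, where a locus was called detected if both libraries gave it 10 or more reads on its annotated strand. The minimum free energy predicted by RNAfold was -22.1 kcal/mol for Mir130a, -30.1 for Mir130b, -37.0 for Mir301 and -39.1 for Mir301b, beside a median of -36.5 kcal/mol over the same 342 hairpins. Per base, Mir130a (-0.345 kcal/mol) and Mir130b (-0.367) lay outside the middle range of those hairpins, -0.481 to -0.385, on the weaker side, and Mir301 (-0.430) and Mir301b (-0.403) lay inside it.

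The members come from 3 places in the genome. Mir130a (ENSMUSG00000065484.1) lies at chr2:84741115-84741178 on the minus strand, in no other annotated gene, 990 bases from the predicted coding gene Gm19426 on the same strand. Mir301 (ENSMUSG00000065589.1) lies at chr11:87113004-87113089 on the plus strand. It is intronic in Ska2, a gene of the spindle and kinetochore complex that holds chromosomes to the mitotic spindle. Mir130b (ENSMUSG00000065572.1) at chr16:17124061-17124142 and Mir301b (ENSMUSG00000076288.1) at chr16:17124400-17124496 lie together on the minus strand, 257 bases apart, in an intron of the coding gene 2610318N02Rik. Mir301b is nearer to the start of that gene, at 671 bases from it, and Mir130b follows at 1025 bases. None of the 3 loci with a host overlapped one of its exons.

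**Figure D1:**
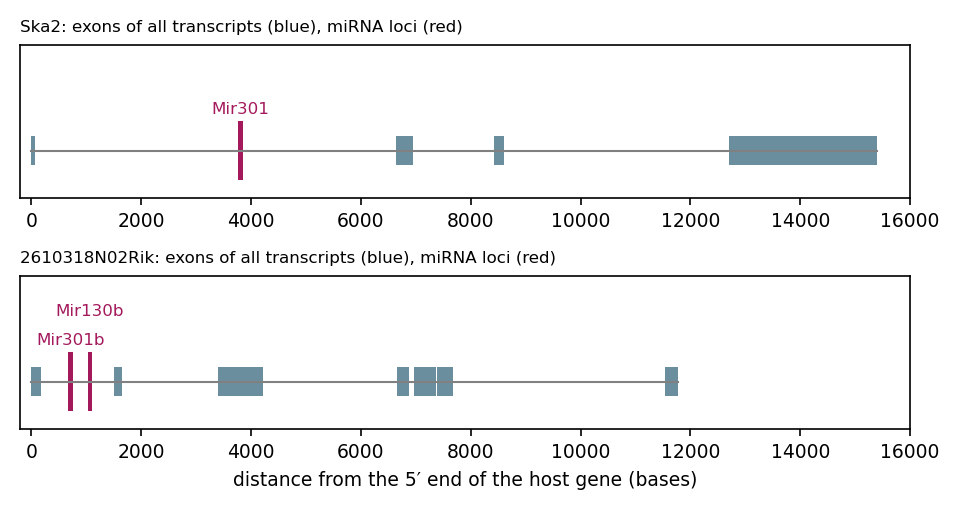
Position of Mir301 in Ska2 and of Mir301b and Mir130b in 2610318N02Rik, with distance from the 5′ end of the host gene in bases on the x axis. Blue boxes are the exons of all annotated transcripts and red boxes the miRNA loci, which all lie between exons, Mir301b at 671 and Mir130b at 1025 bases.

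The libraries held 7302633 sense reads at miRNA loci in replicate 1 and 3966727 in replicate 2, and levels are given as CPM, counts scaled to a common sense total, in which 1 read equals 0.137 in replicate 1 and 0.252 in replicate 2. Of the 1973 loci 397 were detected. Of 9 neural marker loci with counts 7 were detected, with a summed level of 19053 and 23072 CPM. Mir137 led them with 11495 and 13936 CPM, and the 3 Mir124a loci, whose shared reads were not counted, lay between 1.51 and 11.6 CPM. The neural sum is therefore a lower limit, and its other loci were not searched for shared stretches. Muscle markers, with 1 of 4 loci detected, summed to 23.0 and 30.0 CPM, and Mir133a-1 and Mir133a-2, which share a stretch of 20 bases so that reads common to both were not counted, had no read. The vessel wall list, 3 of 3 detected, summed to 32566 and 21781 CPM, the red cell list, 3 of 3, to 486 and 153 CPM, and the white blood cell list, 3 of 3 with counts, to 403 and 178 CPM. No counts were given for Mir142 of the white blood cell list, Mir9-1 of the neural list and Mir1a-2 of the muscle list. The liver miRNA Mir122 had 14.1 and 10.3 CPM. PCR copies are not separate molecules, so intervals and floors describe counting error alone.

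Mir130a dominated the family and was among the most abundant miRNA genes of the midbrain by reads assigned to single loci. The libraries held 36.2% and 36.9% of reads that map to several places and were not assigned. Ranks here and below can therefore place loci with near-identical copies too low. It had 269645 sense reads in replicate 1 and 146890 in replicate 2, which is 36924 CPM (exact Clopper-Pearson interval at 95%, 36788 to 37061) and 37031 CPM (36845 to 37217). These intervals overlap, so the replicates did not differ beyond counting error in their plain share. The mean was 36977 ± 75.1 CPM (SD, n = 2), a coefficient of variation of 0.203% against a median of 12.6% over the detected loci, and 2 of the 397 detected loci varied less. This closeness holds for plain totals. With the library scaling used further below (TMM), the replicates differed 1.06-fold at Mir130a, and 69 of the 397 loci differed less. Mir130a ranked in place 5 in replicate 1 and in place 4 in replicate 2. Mir99a at 214304 ± 1144 CPM and Mirlet7g at 56113 ± 542 CPM stood above it in both libraries, as did Mir335, whose mean of 40416 ± 4908 CPM was higher by less than its own SD. Mir100 changed order with Mir130a between the libraries. Mirlet7i below it, at 34175 ± 645 CPM, and Mir30e, at 29989 ± 1722 CPM, were lower by more than the larger SD and in both replicates.

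Mir130b, the miR-130 copy of the chromosome 16 pair, had 52159 and 25979 sense reads. Its level was 7142 CPM (7082 to 7204) in replicate 1 and 6549 CPM (6470 to 6629) in replicate 2, with a mean of 6846 ± 420 CPM (SD, n = 2). The replicate intervals do not overlap, and replicate 1 was the higher. It ranked in places 27 and 28. Its level could not be separated from that of Mir18 at 6728 ± 59.5 CPM, with which it changed order between the libraries, whereas Mir30d at 7579 ± 161 CPM and Mir342 at 8076 ± 1028 CPM were higher in both and Mir322 at 6215 ± 539 CPM was lower in both, by more than the larger SD.

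Mir301, the Ska2 intron locus that gives miR-301a, had 26559 and 17641 sense reads. It stood at 3637 CPM (3593 to 3681) and 4447 CPM (4382 to 4513), mean 4042 ± 573 CPM (SD, n = 2), with replicate 2 the higher. Its ranks were 54 and 49. None of its 4 neighbours in rank, Mir598 (4300 ± 383 CPM), Mir381 (4270 ± 785), Mir23a (4006 ± 783) and Mirlet7b (3926 ± 800), differed from it by more than the larger SD.

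Mir301b was the least abundant member. It had 1612 and 1174 sense reads, 221 CPM (210 to 232) in replicate 1 and 296 CPM (279 to 313) in replicate 2, with a mean of 258 ± 53.2 CPM (SD, n = 2). Its ranks of 175 and 164 place it near the middle of the detected loci, whose median level was 120 CPM, and 57.4% of them had its mean level or less. The 4 loci next to it in rank, Mir1306, Mirlet7a-1, Mir485 and Mir331, lay between 253 and 261 CPM and could not be separated from it.

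**Figure D2:**
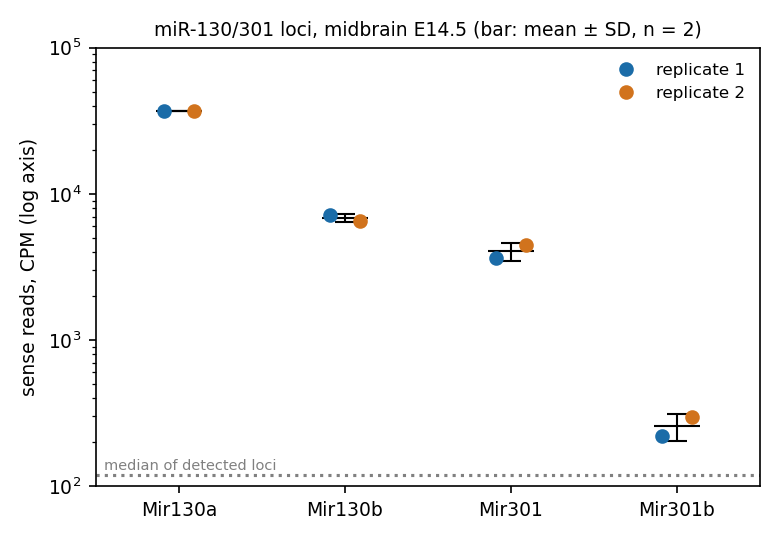
Sense reads of each member in CPM (log axis), with 1 point per replicate and bars for the mean ± SD of 2 replicates; the dotted line is the median of the detected loci. The order Mir130a, Mir130b, Mir301, Mir301b was the same in both replicates, from 36977 CPM down to 258 CPM.

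The order of the members was thus the same in both libraries, and each step was larger than the replicate SD. Mir130a exceeded Mir130b 5.17-fold in replicate 1 and 5.65-fold in replicate 2, a log2 difference of 2.43 ± 0.0914 (SD, n = 2). The step from Mir130b to Mir301 was the smallest, 1.96-fold and 1.47-fold, with a log2 difference of 0.77 ± 0.294. Mir301 exceeded Mir301b 16.48-fold and 15.03-fold, a log2 difference of 3.98 ± 0.0939. From the top of the family to its bottom the difference was 167-fold in replicate 1 and 125-fold in replicate 2. These are differences of reads per hairpin, uncorrected for length or for bias of small RNA libraries between sequences.

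**Figure D3:**
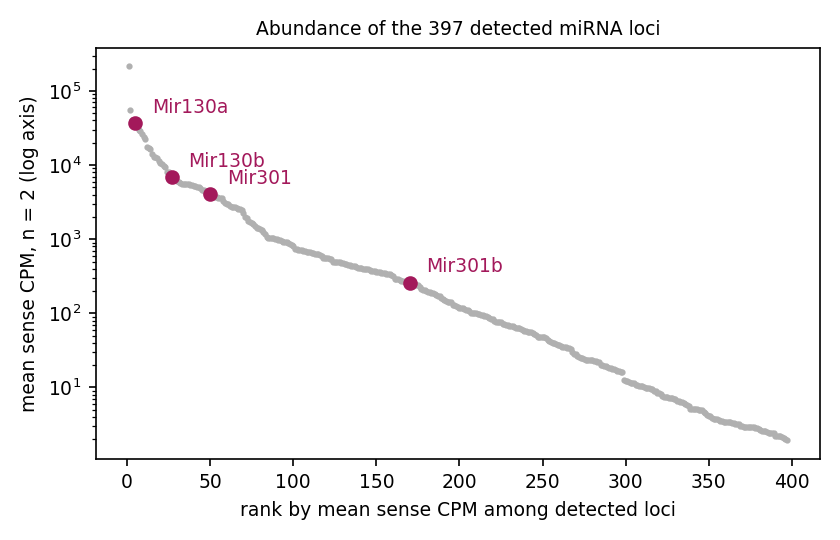
Mean sense CPM of the 397 detected loci (log axis) against their rank, with the members in red. The members lie at ranks 5, 27, 50 and 170.

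The 2 neighbours on chromosome 16 were at very different levels although they lie 257 bases apart in the same intron. Mir130b exceeded Mir301b 32.4-fold in replicate 1 and 22.1-fold in replicate 2 (log2 difference 4.74 ± 0.388, SD, n = 2). Among 110 pairs of adjacent detected loci on 1 strand within 10 kb the median fold between mean levels was 6.23, with a middle range of 2.61 to 40.8, and 31 pairs differed by more than the 26.5-fold of the means of Mir130b and Mir301b. Of the 65 such pairs under 1 kb apart 17 differed by more. The pair as a whole gave 15.4% and 14.2% of the family's reads, nearly all of it from Mir130b.

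Together the 4 members held 4.79% (4.78 to 4.81) of all sense reads in replicate 1 and 4.83% (4.81 to 4.85) in replicate 2, a mean of 4.81% ± 0.0282 (SD, n = 2). Mir130a gave 77.0% and 76.6% of this, Mir130b 14.9% and 13.6%, Mir301 7.59% and 9.20% and Mir301b 0.461% and 0.612%. Grouped by name, Mir130a and Mir130b together exceeded Mir301 and Mir301b 11.4-fold and 9.19-fold. With the 3 most abundant loci left out of the total, the family held 6.92% and 7.04% of the sense reads.

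The ratio of the replicates was then compared with that of all detected loci, on library sizes scaled with TMM, a method that sets the scale from the bulk of loci. Across the 397 loci 66, or 16.6%, differed by more than 1.5-fold in either direction, and 0 of the 4 members did. With 4 loci a count of 0 is near this background and is no result about the members. In log2(replicate 2/replicate 1) Mir130a stood at -0.085, Mir130b at -0.21, Mir301 at 0.20 and Mir301b at 0.33. The median size of this log2 ratio was 0.21 for the members and 0.23 for all detected loci, values close to each other. Mir130a lay nearer to 0 than most, with 69 of 397 loci closer, and Mir301b farther than most, with 260 closer. With plain totals the log2 ratio of Mir130a was 0.0041, so the sign of its small ratio depends on the scaling. The directions of the 3 other members did not change with plain totals or DESeq2 size factors. The 2 loci of the chromosome 16 intron moved in opposite directions between the replicates, Mir130b lower and Mir301b higher in replicate 2, and Mir301 was also higher there.

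**Figure D4:**
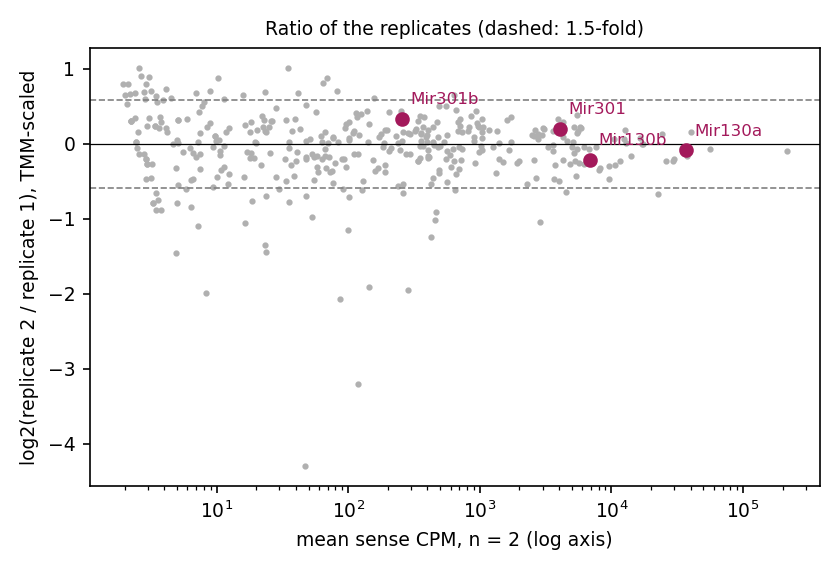
Log2 ratio of replicate 2 to replicate 1 after TMM scaling against mean sense CPM (log axis) for the 397 detected loci, with the members in red and 1.5-fold marked by dashed lines. The members lie between -0.21 and 0.33, inside the dashed lines.

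Summed levels of other cell types' markers differed between the same 2 libraries. Per plain total the red cell list was 3.17-fold, the white blood cell list 2.26-fold and the vessel wall list 1.5-fold higher in replicate 1. The neural list was lower there, at 0.826 of its level in replicate 2. Mir137 (11495 and 13936 CPM) and Mir153 (5279 and 6472 CPM) made up most of the neural sum. Mir124a-1 (7.53 and 5.80 CPM), Mir124a-3 (2.33 and 1.51) and Mir9-2 (3.42 and 0.756) went the other way. In the blood cell lists the largest differences were at single loci. Mir451a had 447 and 123 CPM and Mir223 had 212 and 24.5 CPM. Of the same red cell list, Mir144 had 28.8 and 18.9 CPM and Mir486 had 9.86 and 10.8 CPM. Of the same white blood cell list, Mir155 had 103.5 and 88.5 CPM and Mir150 had 87.8 and 65.0 CPM. All of these but Mir486 were higher in replicate 1. The vessel miRNA Mir126a had 27037 and 18011 CPM. In whole tissue, more cells of a type and more miRNA per cell cannot be told apart, and the part of these cell types in the levels and ratios of the 4 members was not tested.

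The 3 other loci with the same seed that had counts gave no sense reads. Of 1738 mature arms in the RefSeq table, 7 carry the seed, 3 of them from members. The others are shown because they would be read as the same family by their seed, in capitals:
miR-130c: cAGUGCAAuguuccaaggugug
miR-721: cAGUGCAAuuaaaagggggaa
miR-6341: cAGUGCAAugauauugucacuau
miR-6389: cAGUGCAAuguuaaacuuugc

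Mir130c, Mir6341 and Mir6389 each had 0 sense reads in both libraries, which allows a level of up to 3 reads (0.411 CPM in the deeper library and 0.756 CPM in the other). No locus with counts was matched to Mir721, so its level is not known. miR-6389 matches miR-130a-3p over its first 15 bases, with A16C as the first difference. The hairpins of Mir130a and Mir6389 shared an exact stretch of 17 bases, the longest that any member shared with another miRNA hairpin. For Mir130b, Mir301 and Mir301b the longest was 16 bases, in Mir301 and Mir301b with each other. No member shared 20 bases, and no printed arm of a member occurred in a GENCODE transcript of another gene, on either strand. Reads that map to several places, 36.2% and 36.9% of the libraries, were not assigned to loci, and a short read that lies within such a shared stretch would be among them. Copies outside annotated transcripts were not searched.

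The families of miR-19 and of miR-148 and miR-152, whose seeds hold 6 bases of the shared seed, were far less abundant in these counts. The seed of miR-19, miRNAs of the growth-associated cluster of Mir17, holds the last 6 bases of the shared seed, and the seed of miR-148 and miR-152, miRNAs known for repressing the DNA methyltransferase Dnmt1, holds the first 6. They are set beside the members here:
miR-19a-3p: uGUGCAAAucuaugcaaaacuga
miR-148a-3p: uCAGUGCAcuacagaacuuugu
miR-152-3p: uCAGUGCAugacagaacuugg

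Of this list of 7 loci, which also holds Mir721, 6 had counts and all 6 were detected, against 20.1% of all loci. Mir148b led with 366 and 413 CPM (mean 389 ± 33.5, SD, n = 2), followed by Mir148a with 246 in each library and Mir152 with 43.7 and 27.2 CPM. Mir148a was therefore close to Mir301b, the lowest member, and differed from it by less than the SD of Mir301b. Mir19a had 60.8 and 72.4 CPM, Mir19b-1 11.9 and 19.9 CPM and Mir19b-2 4.11 and 2.77 CPM. The mature strand of Mir19b-1 and Mir19b-2 is the same, so that reads of it map to both places and were not counted, and their levels are lower limits. Summed, Mir148a, Mir148b and Mir152 had 670 ± 22.01 CPM and the 4 members exceeded it 71.8-fold ± 1.94 (SD, n = 2). The median level was 5444 CPM over the 4 members and 120 CPM over all detected loci.

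**Figure D5:**
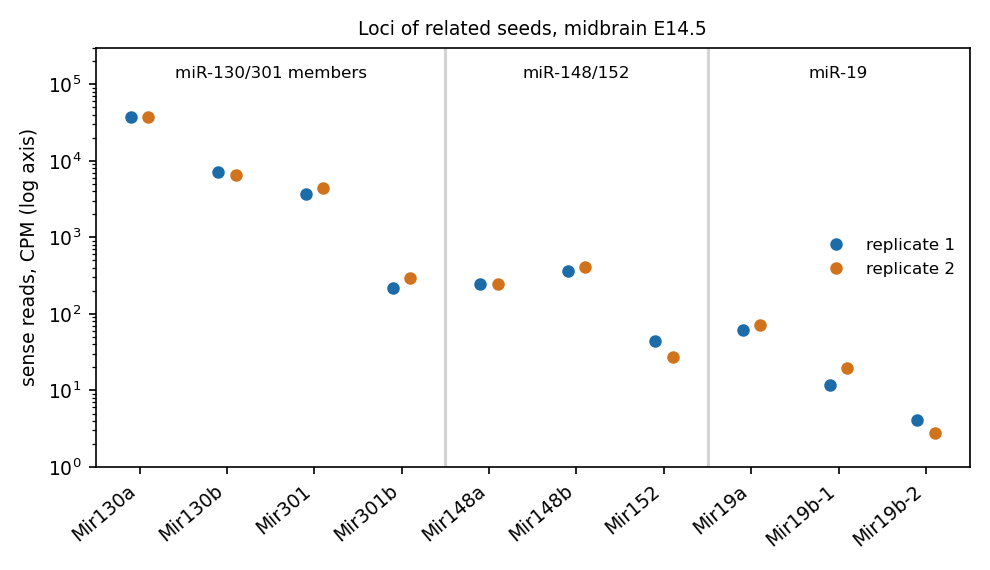
Sense reads in CPM (log axis) of the miR-130 and miR-301 members and of the loci of related seeds, with 1 point per replicate. Of the related loci Mir148b (389 CPM on average) lies above Mir301b and Mir148a (246 CPM) close to it, and the 4 others lie below.

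Grouped by seed, the miR-130 and miR-301 family was among the leading families of the midbrain. CPM was summed over the loci that list a mature arm with a given seed, and a locus counted for the seed of each of its arms. The seed of the family, with Mir301b included as a member, took place 6 with 48124 ± 282 CPM (SD, n = 2), and it held that place in both libraries. Above it stood the seed of Mir99a, Mir99b and Mir100 at 277640 ± 4248 CPM, the seed of the let-7 loci at 107235 ± 989 CPM, the seed of Mir17 and its relatives at 66003 ± 1639 CPM, and the seeds of the other arms of Mir99a and Mirlet7g. Among 25 seeds with 3 or more detected loci it took place 4. Its leading locus, Mir130a, gave 76.8% of the family, where the median over these 25 families was 58.1%, and 8 families were led more strongly. These places rest on the 359 of 397 detected loci with a listed arm, and families whose loci share sequence lose reads that map to several places.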

How the data were processed

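Small RNA under 30 nt, per the labels, was sequenced in 2 libraries of midbrain RNA. The authors deposited raw read counts per miRNA locus for both strands, the annotated (sense) strand and the opposite strand. Assembly mm10 and genome annotation M4 were used, per the text that accompanies each library. The aligner and counter were not given in the sources used here. Reads not assigned to a locus, in 4 classes, were left out. Among these classes, reads that map to several places held 36.2% and 36.9% of the libraries and unmapped reads 19.0% and 18.5%. Reads outside the annotated loci held 3.1% and 2.17%.

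Sense CPM used the sense total per library. Symbols and hosts came from GENCODE M21 (1894 of 1973 identifiers matched). TMM came from edgeR 4.0.16, tested on simulated data, size factors from DESeq2 1.42.0, exact binomial intervals from scipy 1.17.1 and folding from RNAfold 2.7.2. No test between conditions was possible. Detected meant 10 sense reads or more per replicate. Named loci were the members, loci of the same or related seeds, the 2 loci above and below each member in rank, and the 3 highest. Members and lists were chosen with earlier results of these data known. Alternatives covered strand, denominator, scaling, filter, fold, pseudocount, seed definition and each replicate left out.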

Additional observations from a re-analysis of the deposited data

Results flagged for a closer look

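Opposite-strand reads, which the comparisons above do not use, were found at 1 member. Mir130a had 6 of them in replicate 1, above the limit of 3 reads that a count of 0 allows, and 0 in replicate 2. They made up 0.00223% of its reads in replicate 1. The 3 other members had 0 in both libraries.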

How the results depend on the processing

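No paired analysis was possible because the samples form 1 group. With unstranded counts Mir130a stood at 36222 CPM and the family at 4.71% of reads, both beyond the very small replicate SD. With all reads of a library as the denominator Mir130a, Mir130b, Mir301 and Mir301b had 15230, 2819, 1666 and 107 CPM and the family 1.98%. Without Mir99a in the total the family held 6.12%. Among seed families it took place 4 when each locus was counted once. In the main ranking Mir99a had entered under the seeds of both arms, at places 1 and 2, and Mirlet7g likewise at places 3 and 5. By the mean over loci the family took place 31. Its seed was counted for 7 loci with counts, Mir301b included as a member, of which 4 were detected, while other seeds have 1 locus. What set place 31 was not tested. The count of 0 members past the fold was the same under all 7 alternatives, where between 4.28% (2-fold) and 36.6% (no filter) of all tested loci were past it. The 2-fold cut and the other read filters could not change this count, since the largest member ratio stayed at 1.26-fold there. The largest member ratio under any setting, that of Mir301b, was 1.34-fold with plain totals. With 2 replicates, leaving out either one moves a mean by a fixed part of the SD, so it says nothing about stability. Depth limits what can be said of loci without reads, and 2 libraries limit every SD.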
